A study of Mus musculus with 40 samples.

Results

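The 7 loci of the mouse liver methylome, named after the genes Rgs16, Rfng, Phf20, Rhof, Zfp236, Zc3h12a and Qrich2 and described here, were chosen by their difference between animals fed different diets after weaning, and every listed CpG cytosine within 2000 bp of the chosen position was taken as a member. The 7 windows held 83 of the 400298 listed cytosines, and 56 of them reached 10 reads in 36 or more of 40 mice. The reading of the post-weaning comparison that chose a position is therefore given below as a description. Its adjusted p-values are printed to show what chose each member and how that varies with the method, and they are no evidence for the member.

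Liver DNA was taken from 40 male mice of the strain C57BL/6J (strain C57BL/6 in the labels) killed at 9 weeks of age after a short fast. Dams were fed a low fat (LF) or a high fat (HF) diet, with coconut oil as the main fat of both, before mating and until weaning, and their male offspring were fed LF or HF from weaning, which gives 4 groups of 10 animals: LF-fed offspring of LF dams, HF-fed offspring of LF dams, LF-fed offspring of HF dams, and HF-fed offspring of HF dams. The males of a cage were divided between both post-weaning diets, so that littermates can be found in both, but the litter of each mouse is not given in the sources used here. The tissue was not sorted by cell type, and a change in the mix of cell types cannot be told apart from a change within cells.

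DNA methylation was measured by reduced representation bisulfite sequencing (RRBS). The enzyme MspI cuts at CCGG between both C, whether or not the inner CpG is methylated, and each read of 50 bases starts at such a cut. Bisulfite turns unmethylated cytosines into uracil and leaves 5-methylcytosine, so that the percent methylation of a CpG is the share of its reads that still carry a C. In mammals most CpGs outside CpG islands are methylated, whereas CpG islands at gene starts are usually free of methylation. The number of reads limits each value: at the 6 single index CpGs a mouse had between 10 and 58 reads, so that 1 read moved a value by several percentage points, and a value with fewer than 10 reads was missing.

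The chosen genes have unrelated roles. Rgs16 encodes a regulator of G protein signalling, a protein that speeds the return of G alpha subunits to their inactive state, and its expression in liver is known to vary with feeding. Rfng encodes radical fringe, a glycosyltransferase that modifies Notch receptors. Phf20 encodes a reader of methylated lysines that belongs to a histone acetyltransferase complex. Rhof encodes a small GTPase known for filopodia. Zc3h12a encodes Regnase-1, an RNase that degrades mRNAs of inflammatory cytokines. Zfp236 encodes a zinc finger protein, and Qrich2 encodes a glutamine-rich protein known from sperm flagella.

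The sequences around the chosen positions, from the reference genome NCBIM37 (mm9), show what was measured. They are given 5′ to 3′ on the plus strand, with the CpGs that the deposited table lists on either strand in capitals. At Rgs16 (chr1:155593456-155593516) the index CpG, the CpG at the chosen position, starts at base 31 of the run, and it lies inside its read, 31 bases after the read's first base. At Rfng (chr11:120645330-120645390), Phf20 (chr2:156049824-156049884) and Zc3h12a (chr4:124799578-124799638) the index CpG also starts at base 31 but belongs to the MspI site itself, cCGg as printed, and is the first base of its read.
Rgs16: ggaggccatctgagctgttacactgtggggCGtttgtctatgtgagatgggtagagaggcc
Rfng: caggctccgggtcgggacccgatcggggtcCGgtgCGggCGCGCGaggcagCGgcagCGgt
Phf20: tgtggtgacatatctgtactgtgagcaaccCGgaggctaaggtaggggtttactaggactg
Zc3h12a: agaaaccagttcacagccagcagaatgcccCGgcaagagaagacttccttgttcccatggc
At Rhof only a short run is shown (chr5:123553837-123553865), and the index cytosine, which is base 15 of the run and was read on the minus strand, is again the first base of its read.
Rhof: tcctctgcccctcCGgaagagagttggca
The position named for Qrich2 is no listed CpG. It was read as the middle of a bin of 1000 bp, which holds 4 listed cytosines, and their mean is used for this locus. They lie in a stretch that repeats itself, shown at chr11:116318503-116318654.
Qrich2: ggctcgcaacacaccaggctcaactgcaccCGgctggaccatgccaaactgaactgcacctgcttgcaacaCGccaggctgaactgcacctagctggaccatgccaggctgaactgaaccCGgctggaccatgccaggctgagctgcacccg
In the 1001 bases around the Qrich2 position, 54.0% of all runs of 20 bases occur more than once, and the most frequent occurs 10 times. At Zfp236, whose sequence is not shown, this share is 5.50% and the most frequent run occurs 14 times. At the 5 other loci it is between 0% and 1.02%.

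Against the gene annotation, the positions differ in kind. The Rgs16 index (chromosome 1, 155593486) lies 888 bp behind the end of Rgs16. The Rfng index (chromosome 11, 120645360) lies in the coding sequence of Rfng, 161 bp after its start, and 226 bp before the start of Gps1 on the other strand. The Phf20 index (chromosome 2, 156049854) is intronic, 27652 bp after the start of Phf20. The Rhof index (chromosome 5, 123553851) lies in an untranslated part of a Rhof exon, 28850 bp after the start, and also in introns of Tmem120b, on the other strand, and of the lincRNA Gm17627. The Zfp236 index (chromosome 18, 82861409) lies in an intron, 717 bp after the start of the gene. The Zc3h12a index (chromosome 4, 124799608) lies in the coding sequence, 5476 bp after the start. The Qrich2 cytosines (chromosome 11, 116318533 to 116318624) begin 1982 bp upstream of Qrich2.

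Which values chose the members differed between the loci. With a linear model per CpG and p-values adjusted by the Benjamini-Hochberg method (FDR), post-weaning diet gave an FDR below 5% at 2 of the 238168 CpGs tested in offspring of LF dams (0.000840%), of which the Rfng index was one (FDR 0.0119). A CpG with the same value in every mouse compared has no p-value and is not counted in these shares. Among offspring of HF dams it did so at 3 of 242393 CpGs (0.00124%), which included the Phf20 index and the Rhof index (FDR 0.0218 for both). Over all 40 mice 6 of 254765 CpGs passed (0.00236%), among them the Rgs16 index (FDR 0.00353). The other members lay outside the threshold: Zfp236 at an FDR of 0.0763 over all 40 mice, just beyond the last CpG inside it at 0.0409, and Zc3h12a at 0.107 in offspring of HF dams, where the last CpG inside stood at 0.0236. At the 4 cytosines of Qrich2 the lowest FDR of the 3 comparisons was 0.808. Nothing is read from these counts, since they are the choice itself.

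**Figure D1:**
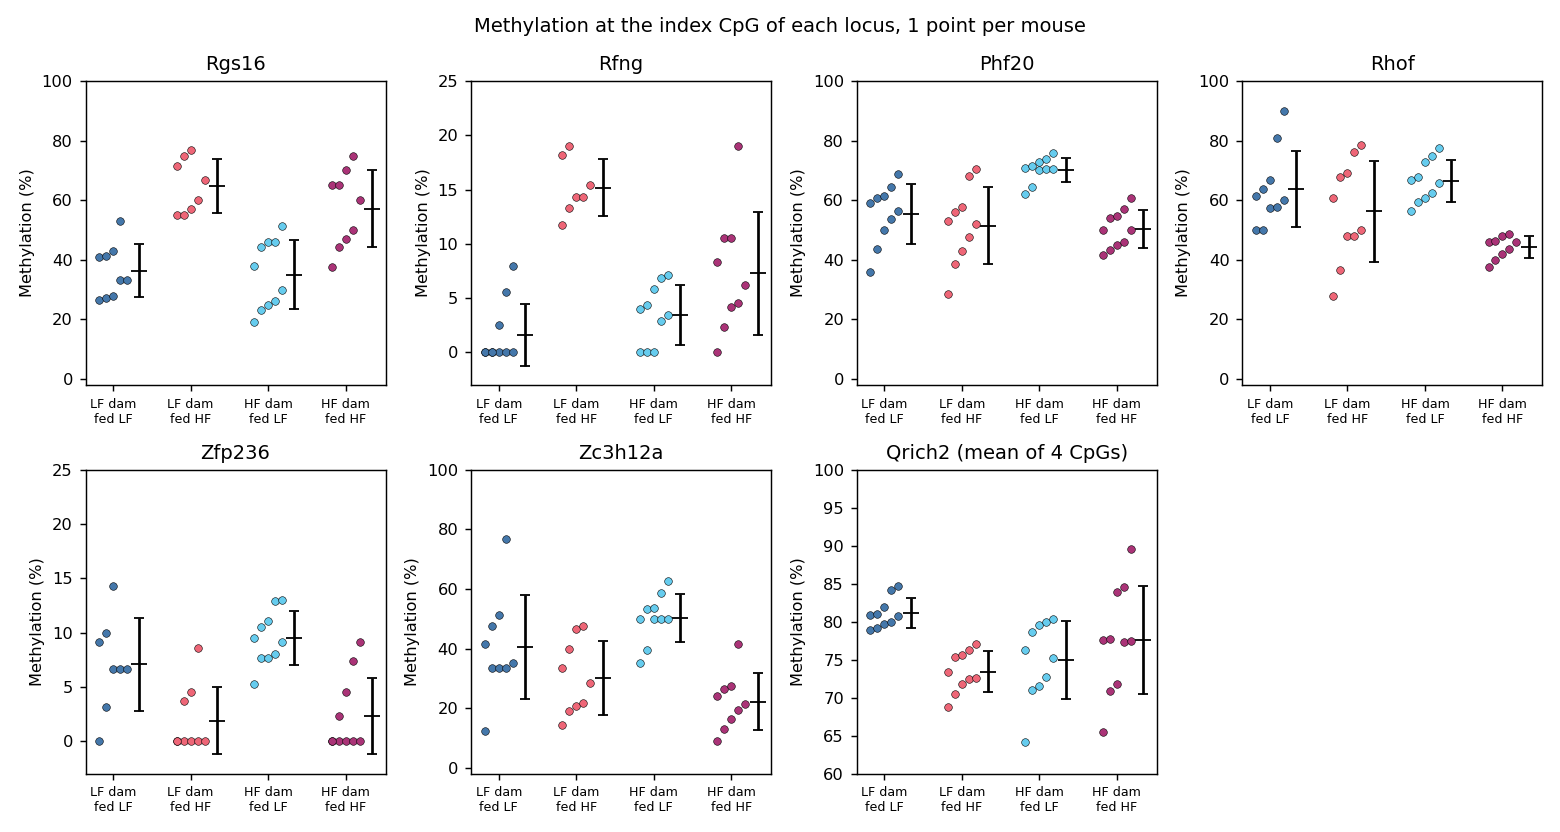
Percent methylation (y axis, %) of each mouse at the index CpG of each locus, by maternal and post-weaning diet; black bars give the mean and SD of a group, and the scale of the y axis differs between panels, starting at 60% for Qrich2. At Rgs16 animals fed HF were higher in both dam groups (group means of 64.6% and 57.1% against 36.3% and 34.96%), whereas at Rfng, Phf20, Rhof and Zc3h12a the wider gap appears in 1 dam group only.

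At Rgs16 methylation was higher in animals fed HF, whatever the diet of their dam. For LF-fed offspring of LF dams it ran from 26.7% to 52.9% with a median of 33.3% (mean 36.3% ± 8.89 SD in 9 mice), and in those fed HF from 55.0% to 76.9% with a median of 63.3% (mean 64.6% ± 9.04 in 8 mice). These values do not overlap. Among offspring of HF dams the range was 19.1% to 51.5% with a median of 34.05% when fed LF (mean 34.96% ± 11.6 in 10 mice) and 37.5% to 75.0% with a median of 60% when fed HF (mean 57.1% ± 12.9 in 9 mice), and here they overlap. The difference was 28.4 ± 4.35 percentage points (SE) in the former and 22.2 ± 5.61 in the latter, and 25.1 ± 3.59 over all 40 mice. The Rgs16 index passed the threshold over all mice and in neither dam group alone. The difference between the dam groups was no term of that model. It stays in the model's residual spread, however, so the choice favoured CpGs at which it is small. That interaction was -6.20 percentage points, with a 95% interval from -20.9 to 8.52 (permutation test with 100000 resamples, two-sided, p = 0.398, FDR over all CpGs 0.875). In these values a difference between the dam groups was not detectable, and the interval is wide. Because the choice favoured a small one, no conclusion is drawn from this test.

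The 5 other CpGs listed at Rgs16 lie at 3 places. One, 31 bp before the index, is the first CpG of the same read and shares its molecules. One lies 80 bp before it on another fragment, and 3 lie 1244 to 1289 bp before it, inside the gene near its end and together on another read. All 5 had 10 reads in only 33 to 35 mice and so fell below the coverage filter. Each was higher in animals fed HF in both dam groups, by 11.2 to 20.1 percentage points in offspring of LF dams and by 9.68 to 17.7 in those of HF dams. At the CpG 31 bp away the group means were 44.5% and 58.7% in offspring of LF dams, fed LF and HF, and 40.4% and 58.1% in those of HF dams. At 1284 bp they were 69.1% and 89.1%, and 76.4% and 86.1%. Over all 40 mice 5 of these 5 neighbours had an unadjusted p-value below 0.05, where 4.20% of the 385298 listed CpGs that varied did. They belong to the same contrast and the same mice as the choice, and the index CpG drew attention to them.

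**Figure D2:**
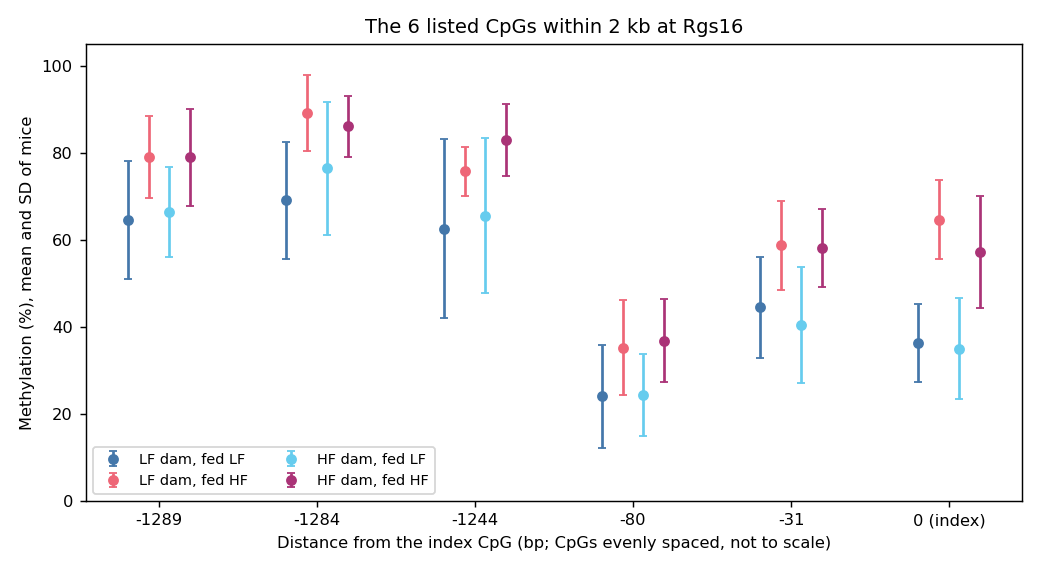
Percent methylation (y axis, mean and SD over mice) of the 6 CpGs listed within 2000 bp at Rgs16, by distance from the index CpG in bp; CpGs are evenly spaced and colours give the 4 groups. At each CpG both groups fed HF lie above both groups fed LF, with differences over all mice from 11.95 to 25.1 percentage points.

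The stretches were then compared across mice, within each post-weaning diet, to see whether an animal high in one was high in the other. The mean of the 3 distal CpGs was 65.4% ± 14.9 in LF-fed offspring of LF dams, 81.3% ± 4.81 in those fed HF, 69.4% ± 11.2 in LF-fed offspring of HF dams and 82.6% ± 4.96 in those fed HF. The mean of the 3 proximal CpGs, the index among them, was 36.7% ± 6.72, 52.7% ± 6.62, 33.1% ± 8.09 and 50.7% ± 5.74 in the same order. It was taken over those of the 3 with a value in the mouse. Among LF-fed offspring of LF dams 9 mice had this mean, but only 6 had a value at the CpG 80 bp before the index. In that group the 3 CpGs stood at 24.0%, 44.5% and 36.3%, so a missing CpG moves the mean of a mouse. Among 18 mice fed LF with values for both, distal and proximal means had a Pearson's r of 0.227 (permutation p = 0.364, adjusted over the 2 correlations 0.728) and a Spearman's rank correlation of 0.241 (permutation p = 0.335, adjusted 0.670), and r was 0.226 without the 2 mice farthest from the median. Among 14 mice fed HF, r was -0.0682 (permutation p = 0.814, adjusted 0.814) and Spearman's rank correlation -0.0946 (permutation p = 0.749, adjusted 0.749). Without the 2 farthest mice r was -0.587. Within a diet no relation between both stretches was thus detectable with these numbers of mice, and in those fed HF r depended on 2 of them.

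At Rfng the level was low in every group, and it was highest in HF-fed offspring of LF dams. For LF-fed offspring of LF dams, methylation ran from 0% to 8% with a median of 0% (mean 1.61% ± 2.89 in 10 mice), and 7 of them had no methylated read. In those fed HF it ran from 11.8% to 19.1% with a median of 14.3% (mean 15.2% ± 2.60 in 7 mice). These do not overlap, and the difference was 13.6 ± 1.37 percentage points. Among offspring of HF dams the range was 0% to 7.14% with a median of 3.72% when fed LF (mean 3.47% ± 2.76 in 10 mice) and 0% to 19.1% with a median of 6.25% when fed HF (mean 7.31% ± 5.66 in 9 mice). Which comparison chose the CpG is not stated. Over all 40 mice its FDR was 0.0849, and those mice include the offspring of HF dams. A test among the latter may thus not be independent of the choice. The difference was 3.84 percentage points (95% interval from -0.392 to 8.08), in the direction of the first, and it did not pass the threshold (exact permutation test, two-sided, p = 0.0680, FDR over all CpGs 0.820). Leaving out each of the 19 mice in turn gave 2.38 to 4.76 percentage points, with model p-values from 0.0253 to 0.143, of which 2 were below 0.05. The lowest value came without mouse 10 of the HF-fed offspring of HF dams, and the 2 p-values below 0.05 came without mouse 2 (4.46, p = 0.0444 in the linear model) or mouse 7 (4.76) of that group.

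The 4 mice without a value at Rfng were all fed HF, 3 of them of LF dams. Their totals were below 10 reads, but the table still lists the number of methylated reads. It was 0 in each of the 3 mice of LF dams, and 1 in the mouse of HF dams. The group with the highest level at this CpG thus lacks 3 animals in which no methylated read was seen, on a number of reads that can be anything below 10. With at least 20 reads required of each mouse, 2 mice fed LF and 3 fed HF remained among offspring of LF dams, with a difference of 10.1 percentage points and an unadjusted p-value of 0.0584 in the linear model.

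The neighbours of the Rfng index were nearly unmethylated. Of the 41 other listed CpGs, 36 are not the first base of a read, and their mean over mice was 0.298% in the median and 0.996% at most. The mean over the 34 CpGs tested in the window without the index was 0.654% ± 0.456 and 0.946% ± 0.400 in offspring of LF dams, fed LF and HF, and 0.972% ± 0.491 and 0.912% ± 0.247 in those of HF dams. Over all 40 mice 28 of these 34 CpGs varied and 2 of the 28 had an unadjusted p-value below 0.05, against 4.34% of all CpGs tested that varied, and both were higher in animals fed HF, by 1.95 percentage points at 40 bp and by 1.56 at 658 bp. The one with the largest difference lies 89 bp from the index and differed by -2.61 percentage points (HF minus LF). The 8 listed CpGs that share the strand and the read of the index, from 5 to 39 bp away, had means of 0% to 0.996%.

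**Figure D3:**
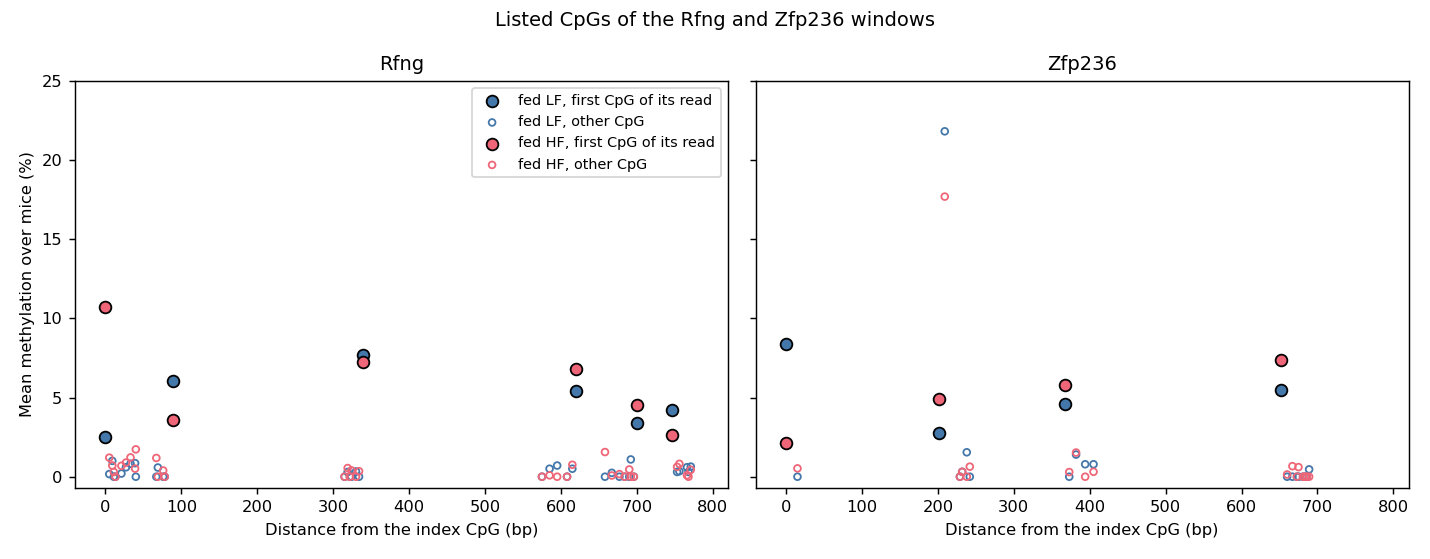
Mean percent methylation over mice fed LF or HF (y axis, %) of every listed CpG of the Rfng and Zfp236 windows by distance from the index CpG in bp; filled points are CpGs at the first base of their read, open points all others. In both windows the filled points lie between 2.12% and 10.7%, and the open points lie lower except at the CpG with a mean of 19.7%.

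Position in the read separated the CpGs of this window. The 5 other CpGs at the first base of a read had means of 3.43% to 7.47%, and the index itself 6.19% over all mice. For a reference level, 16555 read starts were taken outside the 7 windows whose other tested CpGs, at least 3, were all below 5% methylation. The first CpG of these reads, on which no such limit was set, had a mean of 5.53% (median 5.39%). The level of the other CpGs is fixed by this choice and is not compared with it. Averaged per mouse, the first CpGs stood at 5.53% ± 0.257 and 5.56% ± 0.193 in offspring of LF dams, fed LF and HF, and at 5.48% ± 0.0746 and 5.59% ± 0.254 in those of HF dams (10 mice each). Animals fed HF differed from those fed LF by 0.0644 percentage points (permutation test, two-sided, p = 0.328). A difference by diet in the general level at read starts was thus not detectable. The mean of the Rfng index was reached or undercut by 1.81% of the 16555 CpGs in LF-fed offspring of LF dams. In those fed HF 23 of them were as high, but these are the groups between which it passed. Of the other groups, which the choice may also have used, 15.5% were as low or lower in LF-fed offspring of HF dams and 80.6% in those fed HF. Whether the position in the read plays a part in the Rfng values was not tested.

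At Zfp236 the index is the first CpG of its read, and methylation was lower in animals fed HF in both dam groups. For offspring of LF dams it ran from 0% to 14.3% with a median of 6.67% when fed LF (mean 7.06% ± 4.32 in 8 mice) and from 0% to 8.57% with a median of 0% when fed HF (mean 1.87% ± 3.09 in 9 mice). Among offspring of HF dams it ran from 5.26% to 13.0% with a median of 9.31% when fed LF (mean 9.48% ± 2.46) and from 0% to 9.09% with a median of 0% when fed HF (mean 2.34% ± 3.48). The values overlap in both dam groups, and 6 of 9 and 6 of 10 animals fed HF had no methylated read. The difference was -5.19 ± 1.81 and -7.15 ± 1.35 percentage points, and -6.25 ± 1.10 over all 40 mice. The 3 other read starts of this window had means from 3.86% to 6.32%, and 17 of the 18 remaining CpGs were below 2%. The exception, 209 bp from the index, had 19.7%, and over all mice it differed by -4.17 percentage points (HF minus LF). Without the index, the mean of the 6 tested CpGs was 1.18% and 1.48% in offspring of LF dams, fed LF and HF, and 1.15% and 1.34% in those of HF dams. Over all 40 mice 0 of these 6 had an unadjusted p-value below 0.05 in the linear model, where 4.34% of all CpGs tested that varied did. With only 6 CpGs nothing is read from this count.

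At Phf20 the LF-fed offspring of HF dams had the highest mean of the 4 groups. Methylation ran from 62.1% to 75.8% in them with a median of 70.8% (mean 70.2% ± 4.13 in 10 mice), and from 41.7% to 60.7% with a median of 50% in HF-fed offspring of HF dams (mean 50.2% ± 6.33). These do not overlap, with a difference of -20.0 ± 2.39 percentage points. For offspring of LF dams the values ran from 36% to 68.8% with a median of 57.7% when fed LF (mean 55.4% ± 9.92) and from 28.6% to 70.4% with a median of 52.6% when fed HF (mean 51.5% ± 12.8). Among these animals the CpG did not pass. The difference was -3.91 percentage points with a 95% interval from -14.7 to 6.86 (permutation test, two-sided, p = 0.450, FDR over all CpGs 0.851). The index is the only CpG listed within 2000 bp, so that no neighbour could be compared.

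At Rhof the HF-fed offspring of HF dams had the lowest mean. Their values ran from 37.5% to 48.7% with a median of 46.2% (mean 44.3% ± 3.79 in 9 mice), against 56.2% to 77.4% with a median of 66.3% in LF-fed offspring of HF dams (mean 66.4% ± 7.01 in 10 mice). They do not overlap, with a difference of -22.1 ± 2.63 percentage points. Among offspring of LF dams the values ran from 50% to 90% with a median of 60.8% when fed LF (mean 63.8% ± 12.8) and from 27.8% to 78.6% with a median of 55.4% when fed HF (mean 56.3% ± 16.9). The difference there was -7.46 percentage points with a 95% interval from -21.6 to 6.63 (permutation test, two-sided, p = 0.285, FDR over all CpGs 0.808). The other listed CpG, 48 bp away on the same read, was lower in animals fed HF too, but more so in the other dam group. Its means were 63.9% ± 12.6 and 47.8% ± 17.6 in offspring of LF dams, fed LF and HF, and 65.2% ± 9.08 and 56.2% ± 12.6 in those of HF dams. The order of both dam groups was thus opposite at 2 CpGs of the same molecules, and this was not tested. The 1 mouse without a value at the Rhof index, of a HF dam and fed HF, had 7 methylated reads of a total below 10, which is at least 77.8% and above every value of its group.

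At Zc3h12a methylation was lower in animals fed HF, with the wider gap again in those of HF dams. There it ran from 35.3% to 62.5% with a median of 50% when fed LF (mean 50.3% ± 8.03 in 10 mice) and from 9.09% to 41.7% with a median of 21.4% when fed HF (mean 22.1% ± 9.57 in 9 mice). The difference was -28.2 ± 4.04 percentage points, and the values overlap. For offspring of LF dams the values ran from 12.5% to 76.9% with a median of 35% when fed LF (mean 40.5% ± 17.5 in 9 mice) and from 14.3% to 47.6% with a median of 28.6% when fed HF (mean 30.2% ± 12.4 in 9 mice), with a difference of -10.3 ± 7.15. The window holds 1 more CpG, 86 bp away, read on both strands. Its plus strand had means of 7.70% and 13.6% in offspring of LF dams, fed LF and HF, and 13.9% and 9.45% in those of HF dams. Its minus strand had 23.7% and 13.3%, and 22.6% and 17.1%. Over all 40 mice the minus strand differed by -7.99 percentage points (HF minus LF) and the plus strand by 0.779.

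At Qrich2 the pattern rested on offspring of LF dams. The mean of the 4 cytosines ran from 79.0% to 84.7% with a median of 80.8% when fed LF (mean 81.1% ± 1.94 in 10 mice) and from 68.8% to 77.1% with a median of 73.0% when fed HF (mean 73.4% ± 2.68). These do not overlap, with a difference of -7.72 ± 1.05 percentage points. Among offspring of HF dams it ran from 64.2% to 80.4% with a median of 75.8% when fed LF (mean 75.0% ± 5.16) and from 65.4% to 89.6% with a median of 77.5% when fed HF (mean 77.6% ± 7.13), with a difference of 2.66 ± 2.78. With at least 20 reads required at each of the 4 cytosines, which left 6 mice fed LF and 4 fed HF, the latter was -4.44. For offspring of LF dams each of the 4 cytosines was lower when fed HF, with differences of -6.96, -11.8, -7.20 and -4.90 percentage points in order of position. In those of HF dams 3 of the 4 were higher, by 0.239 to 7.13 percentage points, and 1 differed by -1.67. The 3 other CpGs of the window, 674 to 765 bp from the named position, had group means from 74.9% to 92.8%. Their mean differed by -0.665 percentage points in offspring of LF dams (95% interval from -5.70 to 4.38) and by -1.44 in those of HF dams (from -4.77 to 1.89).

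**Figure D4:**
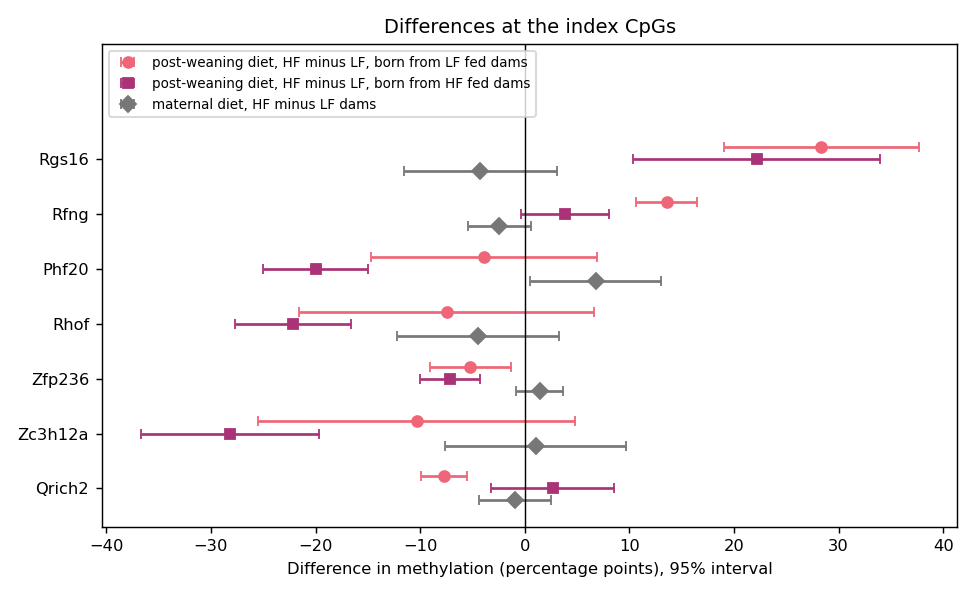
Differences in percent methylation (x axis, percentage points, with 95% intervals) at the index CpG of each locus: post-weaning diet in each dam group, and maternal diet over all 40 mice. Intervals of the comparison that chose a CpG do not allow for that choice; for maternal diet 6 of the 7 intervals include 0, and that of Phf20 starts at 0.540.

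The maternal diet, averaged over both post-weaning diets, was not the difference that chose the loci. It was tested over all 40 mice at each of the 7 loci. The same values enter this test, and the choice favoured a small spread within groups, which can lower these p-values too. Where mice lack a value the groups are unequal, and the terms of both diets are not independent. In the linear model HF minus LF dams gave -4.24 percentage points at Rgs16 (95% interval from -11.6 to 3.07), -2.43 at Rfng (from -5.45 to 0.590), -4.48 at Rhof (from -12.2 to 3.28) and 1.41 at Zfp236 (from -0.827 to 3.66). It gave 1.05 at Zc3h12a (from -7.64 to 9.73), -0.973 at Qrich2 (from -4.41 to 2.46) and 6.79 at Phf20 (from 0.540 to 13.0). The permutation test used the plain mean of the differences within both post-weaning diets, which weights the mice differently where values are missing. That mean was -4.42 at Rgs16 (permutation p = 0.230), -3.01 at Rfng (permutation p = 0.0681), -4.68 at Rhof (permutation p = 0.232) and 1.45 at Zfp236 (permutation p = 0.200). It was 0.816 at Zc3h12a (permutation p = 0.850), and equal to the model's value at Qrich2 (permutation p = 0.572) and at Phf20 (permutation p = 0.0335), all unadjusted. Across all CpGs the FDR of the linear model was 0.874 at Phf20 and between 0.874 and 0.979 at the other 5 single CpGs, so none passed. Within each post-weaning diet the 6 single CpGs had FDRs over all CpGs from 0.819 to 0.964, in comparisons that share mice with the choice. Among animals fed LF alone, those of HF dams were 14.8 percentage points higher at Phf20 (95% interval from 7.68 to 21.97) and differed by -6.16 at Qrich2 (from -9.82 to -2.50) and by 1.86 at Rfng (from -0.796 to 4.52). Among animals fed HF alone the differences at these loci had the opposite sign, with -1.24 at Phf20 (from -10.7 to 8.27), 4.22 at Qrich2 (from -0.845 to 9.28) and -7.88 at Rfng (from -12.9 to -2.90). The sign also turned at Rhof (2.67 fed LF, -12.0 fed HF) and Zc3h12a (9.75 and -8.12). It did not turn at Rgs16 (-1.31 and -7.52) or Zfp236 (2.42 and 0.468). Each of these comparisons shares a group with the one that chose the locus. Across the genome maternal diet gave 0 CpGs with an FDR below 5% in the linear model over all 40 mice, with 10079 at an unadjusted p-value below 0.05, and 0 by the quasi-binomial model, by limma and by the test on ranks, with 15064, 15077 and 11073 at such a p-value.

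**Figure D5:**
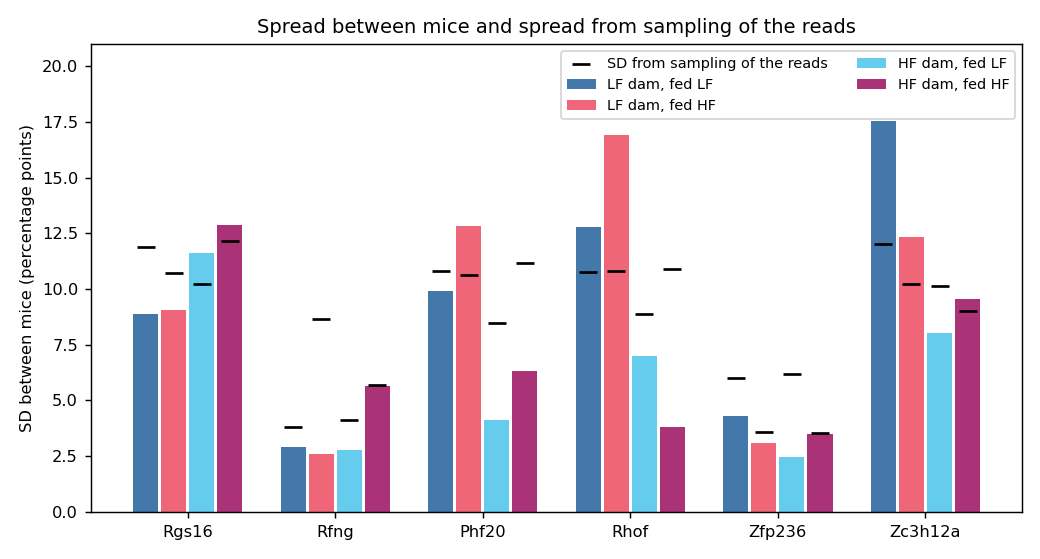
SD between mice (bars, percentage points) at the 6 single index CpGs in each of the 4 groups, with the SD that binomial sampling of the reads alone gives (black dashes). In groups of the comparison where each passed, SDs were 2.60 at Rfng, 4.13 at Phf20 and 3.79 at Rhof. Sampling gave 8.66, 8.48 and 10.9, and the spread is part of the test by which CpGs were chosen.

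The spread between mice was compared with what the reads alone would give. If all mice of a group shared 1 level, sampling of their reads would give an SD of 8.66 percentage points at Rfng in HF-fed offspring of LF dams, and the SD observed was 2.60. At Phf20 it would give 8.48 in LF-fed offspring of HF dams and 11.2 in those fed HF, and the SDs observed were 4.13 and 6.33. At Rhof the SD observed in HF-fed offspring of HF dams was 3.79, with 10.9 from sampling. At Zfp236 the SD observed in LF-fed offspring of HF dams was 2.46, with 6.18 from sampling, and the ratios of observed to sampling SD were 0.720, 0.861, 0.399 and 0.987 in the 4 groups. A small spread within the groups compared raises the statistic by which CpGs were chosen, over both dam groups at Zfp236, so these SDs describe the choice. At Rgs16 the ratios were 0.747, 0.844, 1.14 and 1.06 in the 4 groups, and at Zc3h12a 1.46, 1.21, 0.792 and 1.06. Pooled over the mice of a group, 109 of 168 reads were methylated at Rgs16 in HF-fed offspring of LF dams (64.9%, exact binomial 95% interval from 57.1% to 72.1%), against 59 of 159 in those fed LF (37.1%, from 29.6% to 45.1%). At Rfng 20 of 135 reads were methylated in the former (14.8%, from 9.29% to 21.9%) and 4 of 178 in the latter (2.25%, from 0.616% to 5.65%). These intervals cover counting error only, since reads may be copies of 1 molecule.

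The members differed in how their FDR varied with the method. The Rgs16 index kept an FDR below 5% over all 40 mice under each of the 7 alternatives that could be applied to it (0.00172 to 0.0148), among them the quasi-binomial model, which counts reads, with 0.0148. The Rfng index in offspring of LF dams, and the Phf20 and Rhof indices in offspring of HF dams, each did so under 3 of 7 alternatives. Of the readings outside the threshold, Zfp236 over all 40 mice passed under 1 of 7 (0.0373, among CpGs with a mean methylation from 5% to 95%), Zc3h12a in offspring of HF dams under 1 of 7 (0.0388, with total reads as a covariate) and Rfng over all 40 mice under 2 of 7 (0.0101 and 0.0415, with an FDR of 0.0849 in the linear model). The quasi-binomial model does not let the spread fall below sampling. Under it the FDR of Rfng, Phf20 and Rhof in the dam group where each passed was 0.765, 0.766 and 0.766. With the mean methylation of the mouse as a covariate it was 0.0619, 0.220 and 0.214. Under the Wilcoxon test the unadjusted p-values of these 3 CpGs, 1.028e-04, 1.083e-05 and 2.165e-05, are the smallest it can give for groups of these sizes, and a single p-value of that size does not pass over all CpGs. With a value at the index, 36 mice entered at Rgs16, against 17 at Rfng, 20 at Phf20 and 19 at Rhof, and the cause of these differences was not tested.

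The number of reads at the index positions did not differ detectably by post-weaning diet. On the log2 scale, relative to the total of the mouse, animals fed HF differed from those fed LF by -0.101 at Rgs16, -0.00590 at Rfng, -0.0883 at Phf20, -0.162 at Rhof, 0.0971 at Zfp236, 0.0954 at Zc3h12a and 0.107 at Qrich2, and the smallest of the 7 permutation p-values was 0.205. Only mice with at least 10 reads enter these values.

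A feature that the rule does not name is the place of the index in its read: 5 of the 6 single index CpGs are the first base of a read. Among all tested CpGs 37.7% are, and among those with a mean methylation from 5% to 95% the share is 61.0%. Among those with an unadjusted p-value below 0.05 for post-weaning diet in the linear model it is 52.5% in offspring of LF dams. It is 55.9% in those of HF dams and 48.6% over all 40 mice. A choice by a small p-value thus takes in read starts more often. Of the CpGs that passed for post-weaning diet, 2 of 2 in offspring of LF dams, 2 of 3 in those of HF dams and 0 of 6 over all 40 mice were.

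The promoters of the members, reaching 1000 bp before and 500 bp behind a transcription start, were measured in part. At Rgs16 5 promoter CpGs had a mean of 14.6%, with differences by post-weaning diet over all mice from -0.945 to 5.60 percentage points. At Rhof 8 had a mean of 3.76% (from -1.26 to 1.94), and at Zfp236 5 had 1.55% (from -0.785 to 1.24). None of these had an unadjusted p-value below 0.05. At Qrich2 4 had a mean of 37.7% (from -8.19 to -3.31), and 1 of them had one. At Rfng and Zc3h12a the index itself lies in this range of a transcription start and was left out. The other 34 promoter CpGs of Rfng are the window CpGs described above, as are the 5 of Zfp236. At Zc3h12a 19 CpGs had a mean of 3.01% (from -7.99 to 1.59), and 1 of the 18 that varied, the minus strand of the CpG 86 bp from the index, had such a p-value. Of all CpGs tested that varied 4.34% had one. No promoter CpG of Phf20 was tested.

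Related genes were taken from lists of the same families and pathways. Of 9 other regulators of G protein signalling, 3 (Rgs2, Rgs3 and Rgs8) had tested promoter CpGs, and 0 of their 8 CpGs had an unadjusted p-value below 0.05 by post-weaning diet over all mice. Of the 10 fringe genes, Notch receptors and ligands listed for Rfng, 9 had 156 promoter CpGs, of which 147 varied and 7 had such a p-value, 3 higher and 4 lower in animals fed HF. The largest difference in the list was -4.95 percentage points at Lfng, the fringe gene with 21 CpGs tested. For Phf20 3 of 9 partners (Kansl1, Kansl2 and Mcrs1) had 14 CpGs, and 0 had such a p-value. For Rhof 9 of 15 relatives had 69 CpGs, of which 64 varied, and 1, at Rhob, had such a p-value (0.0365). For Zc3h12a 6 of 8 relatives, other regulators of mRNA decay, had 32 CpGs, and 1, at Zfp36l2, had such a p-value (0.0206). For Qrich2 the 10 promoter CpGs of Qrich1 had differences from -0.543 to 1.42, with 0 such p-values. In all 6 lists the median methylation was below 1%, and 0 CpGs had an FDR below 5%. These counts stand beside 4.34% of all CpGs tested that varied.

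The CpG elsewhere in the genome whose values across mice were most like those of each index was sought among 172053 to 172059 CpGs with an SD of at least 3 percentage points. The Zc3h12a index was closest to a CpG in Scara5 on chromosome 14 (position 66378499, Pearson's r 0.727 over 36 mice). That CpG itself passed for post-weaning diet, both in offspring of HF dams and over all 40 mice. The Zfp236 index was closest to a CpG 17735 bp from D630003M21Rik (r 0.731 over 35 mice), Rfng to one in Sox2ot (r 0.708 over 33), Rgs16 to one 34 bp from Bbs1 (r 0.703 over 36), Phf20 to one in Tmem102 (r 0.685 over 36), Qrich2 to one in Rxrg (r 0.661 over 36) and Rhof to one in Fam163b (r 0.656 over 38). These are the highest of a large number of correlations over few mice that share their diets and libraries.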

How the data were processed

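RRBS libraries from 40 livers, 10 per group, were grouped by the labels. The authors digested DNA with MspI, sequenced single-end reads of 50 bases and aligned them to mm9 with Bismark. For each CpG cytosine they deposited a count of methylated reads and a count of all reads per mouse, and their ratio as a fraction, without normalization, and totals below 10 reads were missing. The deposited fraction equalled the ratio of the counts in every case and only the counts were used further. There were 0 columns of no mapped mouse. Reads at listed CpGs summed to 2969907 to 23345592 per mouse (median 9245710), and 8.67% of values were missing.

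Percent methylation was tested per CpG with Student's test as in the study's methods (2 groups) or a linear model of both diets (all 40 mice), over CpGs covered in at least 36 mice, with Benjamini-Hochberg adjustment over all CpGs tested. Single values were compared by permutation tests, exact where a group had fewer than 10 values, except that tests permuted within post-weaning diets and tests of depth used 100000 resamples. The tests were checked on simulated reads. Python 3.11.15, scipy 1.17.1, R 4.3.3 and limma 3.58.1 were used. Genes came from GENCODE on NCBIM37. All 399856 listed cytosines on chromosomes lay at CpGs of that reference, and 99.98% within 50 bases of an MspI cut.

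The members and the lists were chosen with earlier results of these data known. CpGs named are the index of each locus, its neighbours within 100 bp, the window CpG with the largest difference, and the CpG most like the index. Other CpGs named, at Rgs16, at Rfng (658 bp away), at Zfp236 (209 bp) and at Qrich2, and single related genes were chosen after their values were seen. Added after seeing the data were the term of maternal diet over all 40 mice, the bin at Qrich2, the permutation test at Rgs16 with the correlation of its stretches, and the comparisons with read starts and with sampling of the reads. Labels do not say whether mice are littermates, so p-values measure the spread between these mice.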

Additional observations from a re-analysis of the deposited data

How the results depend on the processing

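The counts of called CpGs depended on the test. For post-weaning diet, 2 CpGs in offspring of LF dams and 3 in those of HF dams became 0 in both under at least 20 reads, the Wilcoxon test, the quasi-binomial model, limma on log2 ratios, and mean methylation of the mouse as a covariate. In groups of these sizes a CpG without overlap has the smallest p-value that the Wilcoxon test can give, so that its count there says nothing about stability. At least 20 reads left only 2420 CpGs to test in offspring of LF dams. Over all 40 mice 6 became 11 among CpGs with 5% to 95% methylation and 0 with at least 20 reads. For maternal diet 0 became 1 among CpGs with 5% to 95% methylation in animals fed LF, and 1 over all 40 mice with at least 20 reads. Of 46 neighbours 40 varied and 4 of these (10%) had an unadjusted p-value below 0.05 in the direction of the index, against 4.34% of all CpGs tested that varied, and 9 of 60 (15%) with all CpGs as deposited, against 4.20%; 5 of these 9 lie at Rgs16. Within 500 bp it was 3 of 21 (14.3%), and within 100 bp 3 of 16 (18.8%). These neighbours belong to the contrast and the mice of the choice, and some lie on the reads of their index. The shares are thus a description only. Leaving out each mouse in turn moved the post-weaning difference in the dam group where the CpG did not pass. It ran from 2.38 to 4.76 percentage points at Rfng, from -6.06 to -1.36 at Phf20 and from -9.93 to -4.29 at Rhof. In offspring of LF dams it ran from -13.8 to -5.77 at Zc3h12a, and in those of HF dams from 1.33 to 4.01 at Qrich2. The post-weaning difference over all 40 mice ran from 24.0 to 26.4 at Rgs16. The maternal difference at Phf20 ran from 5.53 to 8.03, and 34 of the 40 such fits kept a model p-value below 0.05; it was 7.71 with at least 20 reads (p = 0.0652 in the linear model) and 5.70 with total reads as a covariate (p = 0.0649). Direction turned in these cases: the interaction at Rgs16 was 2.65 with at least 20 reads, maternal diet at Rfng in animals fed LF -1.64, post-weaning diet at Qrich2 in offspring of HF dams -4.44, and maternal diet at Zfp236 in animals fed HF -0.508, or -0.242 with pooled reads. With mean methylation of the mouse as a covariate, maternal diet in animals fed LF gave 1.34 at Rgs16 and -1.90 at Rhof, in place of -1.31 and 2.67. Leaving out 1 mouse turned the maternal difference at Rgs16 in animals fed LF (from -3.15 to 0.771), at Phf20 in animals fed HF (from -3.78 to 0.864), at Zfp236 in animals fed HF (from -0.283 to 1.31) and at Zc3h12a over all mice (from -0.981 to 3.02). The cause of these shifts was not tested. Summing both strands was not possible, since the table lists the partner cytosine of none of the 6 single index CpGs. No paired analysis was possible because mouse numbers only name the mice. With at least 20 reads in 36 mice, none of the 6 single index CpGs could be tested.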

Other observations

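At the 6 single index CpGs the table lists methylated reads for 15 pairs of CpG and mouse without a total, which were outside all comparisons. Since the total lies below 10, each gives a lowest possible level. At Rgs16 the mouse left out among LF-fed offspring of LF dams had 2 methylated reads, so at least 22.2%, and the 2 left out among those fed HF had 3 and 5, so at least 33.3% and 55.6%. The mouse left out among HF-fed offspring of HF dams had 3, so at least 33.3%. At Zc3h12a the mice left out had 4 methylated reads (at least 44.4%) in LF-fed offspring of LF dams, 3 (at least 33.3%) in those fed HF and 1 (at least 11.1%) in HF-fed offspring of HF dams. At Zfp236 the 2 mice left out among LF-fed offspring of LF dams had 0 and 1 methylated reads, the latter at least 11.1%, and the mouse left out among those fed HF had 0. No group at the 7 loci held a mouse set apart from the others by Dixon's criterion, in 28 groups examined.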
